A study of Mus musculus with 8 samples.

Results

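The comparison described here is that of 6 h of BRM014 with 6 h of the vehicle DMSO, in NMuMG cells, a line of normal mouse mammary gland epithelium that the labels give as wild type. It was chosen by its column names and holds 4 of the 8 samples of the series: 2 DMSO samples and 2 BRM014 samples, all collected at 6 h. The other 4 samples are the same pair of treatments at 30 h, and they are used here to estimate the spread and to test whether an effect at 6 h differed from that at 30 h. All 8 samples were total RNA of cells grown in DMEM with serum and insulin, and no allele or treatment other than DMSO or BRM014 is given for them. In the sources used here no dose of BRM014 was given. The labels call the 2 samples of a group biological replicates. They do not say if these were separate cultures, so the p-values below measure only the spread between these samples, which may be technical. The question the comparison addresses is which transcripts respond within hours when the remodeling enzyme is inhibited.

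BRM014 inhibits the ATPase activity of SMARCA4 (BRG1) and SMARCA2 (BRM), the alternative motor subunits of the SWI/SNF complexes. These complexes use ATP to slide or evict nucleosomes, and their activity keeps many enhancers and some promoters accessible to transcription factors. In epithelial cells the factors that work at such enhancers include the AP-1, TEAD, ETS, CEBP and forkhead families.

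Values are CPM (counts scaled by TMM to a library of 1e+06 counts) and log2 fold changes of BRM014 over DMSO ± their standard error, from an edgeR quasi-likelihood fit, with 2 libraries against 2. A gene is said to have risen or fallen where its Benjamini-Hochberg adjusted p over all 11835 tested genes was below 0.05. The 4 libraries at 6 h held 19358831 to 23332170 counts and 13286 to 13505 genes with a count, the replicates correlated with r = 0.992 (DMSO) and 0.994 (BRM014) on the log2 CPM scale, and none stood apart in depth. Of 18 epithelial markers, 8 had enough counts to be tested, among them Krt8, Krt18, Cdh1, Ocln, Spint2 and Esrp2, while Epcam, Cldn3, Cldn7 and Esrp1 had 0 counts in all 4 libraries. The summed level of the epithelial markers was 6207 to 6567 CPM in DMSO and 5757 to 6367 CPM in BRM014, most of it Krt18 and Krt8. Markers of fibroblasts summed to 1.12 to 1.61 CPM in DMSO and 0.718 to 0.853 CPM in BRM014, and those of endothelial cells to 0.0853 to 0.260 CPM over the 4 libraries, with Dpt, Thy1, Lum, Emcn and Erg at 0 counts. Immune markers summed to 7.52 to 8.42 CPM in DMSO and 4.26 to 5.80 CPM in BRM014, nearly all of it Cd68, with Tyrobp and Adgre1 at 0 counts and the leukocyte marker Ptprc at no more than 1 count in any library. Markers of mammary luminal and secretory cells summed to 23.3 to 24.5 CPM in DMSO and 27.1 to 31.0 CPM in BRM014, most of it Foxa1, with the milk protein genes Csn1s1, Csn2, Wap and Lalba at 0 counts. Btn1a1, which encodes a milk fat globule protein, was the called gene among the 3 tested markers of that list, at 1.93 and 0.780 CPM in DMSO and 3.69 and 3.41 CPM in BRM014 (1.38 ± 0.36, adjusted p = 0.0134, edgeR). Its call ended without DMSO replicate 2 (0.87, adjusted p = 0.120), BRM014 replicate 1 (adjusted p = 0.0658) or BRM014 replicate 2 (adjusted p = 0.0552), and its log2 change was 2.21 without DMSO replicate 1 (all by edgeR).

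Neither transcript of the ATPases that BRM014 inhibits passed the test. Smarca4 was at 486 and 434 CPM in DMSO and 442 and 455 CPM in BRM014 (-0.04 ± 0.09, adjusted p = 0.827 by edgeR). Smarca2 was at 3.15 and 2.81 CPM in DMSO and 3.54 and 2.77 CPM in BRM014 (0.08 ± 0.24, adjusted p = 0.856 by edgeR). The groups overlapped for both genes, and since an inhibitor of the enzyme need not lower its mRNA, these values do not check the labels. Of 26 tested genes of SWI/SNF subunits 2 rose and none fell (edgeR, with 0 at an unadjusted p below 0.05, 0 by DESeq2 and 0 by limma-voom). These were Bicral, which encodes an accessory subunit of the GBAF form of the complex (from a mean of 25.7 to 63.4 CPM, 1.30 ± 0.12, adjusted p = 6.53e-06), and Bcl7c, another accessory subunit (from a mean of 15.4 to 26.9 CPM, 0.81 ± 0.15, adjusted p = 0.00128, both by edgeR).

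After 6 h of BRM014 more genes had fallen than risen, and the falls were larger. Of 11835 tested genes, 1709 fell (14.4%) and 1106 rose (9.35%), so that 23.8% were called. The median fall was 1.72-fold and the median rise 1.49-fold. At 2-fold or more, 659 genes fell (5.57%) and 205 rose (1.73%), and at 8-fold or more, 122 fell (1.03%) and 20 rose (0.169%). Among the called genes 60.7% were lower, and 76.3% of those that changed at least 2-fold. Scaling to library totals in place of TMM turned the smaller changes: 1691 genes were then higher and 1391 lower (45.1% lower), with a shift of the median of all tested genes of 0.08 on the log2 scale. Both BRM014 libraries lay beyond both DMSO libraries for 1106 of the 1106 genes that rose and 1708 of the 1709 that fell, against 30.8% of all tested genes separate upward and 34.4% separate downward. The counts rested on each library: without DMSO replicate 1 they were 675 higher and 1112 lower, and without DMSO replicate 2 there were 652 higher. Without BRM014 replicate 1 they were 647 and 1072, and without BRM014 replicate 2 they were 416 and 999, with 135 rises of at least 2-fold.

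**Figure D1:**
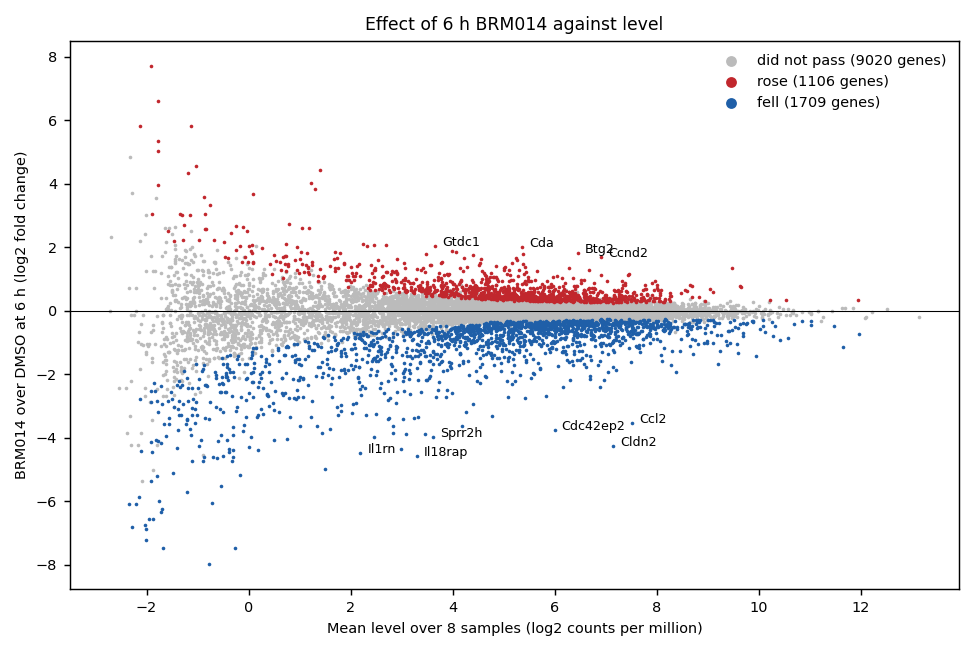
Log2 fold change of BRM014 over DMSO at 6 h (vertical axis) against the mean level over the 8 samples (horizontal axis, log2 CPM), 1 point per tested gene. Red points are the 1106 genes that rose and blue points the 1709 that fell. The blue points reach farther from 0 than the red ones over most of the range of levels.

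Large falls and large rises were both most frequent among genes of low mean level over the 8 samples. Tested genes were ordered by that mean and split into 4 bins of near equal size. The mean takes in the BRM014 libraries, so a large fall itself lowers it. Il18rap, at a mean of 60.7 CPM in DMSO at 6 h, lay in the lowest bin. Its mean was 3.29 on the log2 CPM scale, and that bin ended at 3.45. An order by DMSO level alone was not tested. In the lowest bin 16.5% fell and 13.8% fell at least 2-fold. In the highest bin 15.0% fell, but 2.10% fell at least 2-fold. Rises were most frequent in the middle bins, at 12.4% and 10.9% of genes. The median standard error over all tested genes was 0.13 on the log2 scale and 0.34 in the lowest bin, so smaller changes could be called where the level was high.

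The 12 largest falls among genes of at least 2 on the log2 CPM scale included cytokines, their receptors and proteins of the epithelial surface. Cldn2, which encodes a pore-forming claudin of tight junctions, was at 636 and 628 CPM in DMSO and 36.1 and 29.9 CPM in BRM014. The chemokine gene Ccl2, whose product attracts monocytes, was at 278 and 308 CPM in DMSO and 20.3 and 30.3 CPM in BRM014. Cdc42ep2, an effector of the GTPase CDC42, was at 184 and 190.0 CPM in DMSO and 13.4 and 14.4 CPM in BRM014. In each case the 2 BRM014 values lay far below the 2 DMSO values, and the log2 changes were -4.26 ± 0.15, adjusted p = 1.75e-09, -3.53 ± 0.18, adjusted p = 5.81e-08 and -3.75 ± 0.11, adjusted p = 2.29e-10 (edgeR). Il18rap, the accessory chain of the interleukin-18 receptor, was at 62.1 and 59.4 CPM in DMSO and 3.13 and 2.05 CPM in BRM014. Il1rn, the interleukin-1 receptor antagonist, was at 31.2 and 28.5 CPM in DMSO and 1.90 and 0.853 CPM in BRM014. Wnt7a, a secreted WNT ligand, was at 79.9 and 49.9 CPM in DMSO and 5.03 and 3.88 CPM in BRM014. These 3 genes also showed no overlap of the groups, with log2 changes of -4.57 ± 0.18, -4.47 ± 0.30 and -3.87 ± 0.27.

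The other 6 genes of the 12 were lower, with log2 changes of -3.62 to -4.36. They were the chemokine gene Ccl7 (from a mean of 20.1 to 0.960 CPM), the cornified envelope gene Sprr2h (from a mean of 92.1 to 5.91 CPM), Slfn2 of the Schlafen family (from a mean of 13.8 to 0.871 CPM) and Anks4b, a scaffold of the brush border (from a mean of 33.9 to 2.23 CPM). The stress-induced regulator Nupr1 (from a mean of 18.8 to 1.31 CPM) and the water channel Aqp5 of secretory glands (from a mean of 30.0 to 2.51 CPM) completed them. Each held its call under all 16 other settings. Sprr2 genes are near-identical copies whose reads the counting could have split, so the value of Sprr2h is uncertain.

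Among genes of the same minimum level the largest rises were smaller than the largest falls. Cda, which encodes cytidine deaminase of the pyrimidine salvage pathway, was at 14.7 and 17.4 CPM in DMSO and 62.9 and 67.7 CPM in BRM014 (2.03 ± 0.12, adjusted p = 1.81e-07). Btg2, an antiproliferative gene and p53 target, was at 32.6 and 23.8 CPM in DMSO and 111 and 87.2 CPM in BRM014 (1.81 ± 0.15, adjusted p = 2.51e-06). Ccnd2, which encodes cyclin D2, was at 50.9 and 59.2 CPM in DMSO and 133 and 226 CPM in BRM014 (1.71 ± 0.19, adjusted p = 2.51e-05, all by edgeR). None of the 3 genes had overlapping groups, and the 2 BRM014 values of Ccnd2 were the farthest apart. Chac1, whose product degrades glutathione, was at 21.9 and 18.7 CPM in DMSO and 69.0 and 72.3 CPM in BRM014 (1.80 ± 0.22). Socs1, an inhibitor of JAK kinases, was at 4.22 and 3.48 CPM in DMSO and 17.3 and 15.0 CPM in BRM014 (2.07 ± 0.25). The serine protease gene Prss36 (from a mean of 1.57 to 6.84 CPM), the thioredoxin-domain gene Txndc16 (from a mean of 2.01 to 8.44 CPM), Kank3 (from a mean of 1.57 to 6.43 CPM) and Gtdc1, which encodes a glycosyltransferase-like protein (from a mean of 6.70 to 27.5 CPM), rose by 2.03 to 2.12. The lipoprotein lipase inhibitor Angptl4 (from a mean of 8.57 to 31.0 CPM), Morc4 (from a mean of 6.30 to 21.7 CPM) and Mfsd13a (from a mean of 8.50 to 29.0 CPM) made up the 12.

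**Figure D2:**
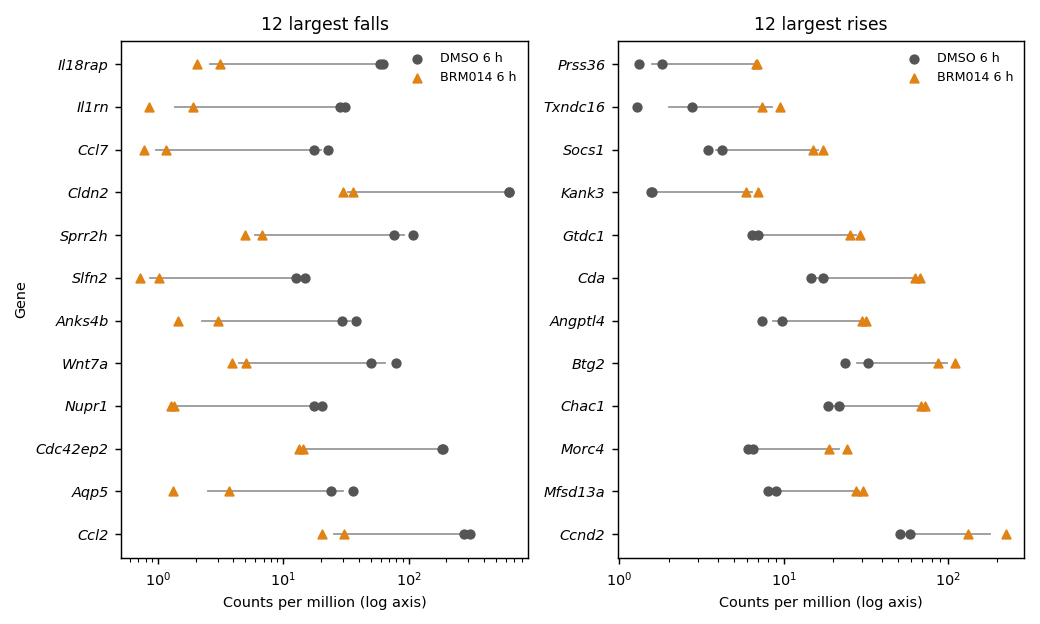
CPM (log axis) of the 12 genes with the largest falls (left) and the 12 with the largest rises (right) among genes of at least 2 on the log2 CPM scale. Circles are the 2 DMSO samples and triangles the 2 BRM014 samples at 6 h, and a line joins the group means. The groups do not overlap for any of the 24 genes, which does not set them apart. The same held for 1106 of the 1106 genes that rose and 1708 of the 1709 that fell.

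Promoter windows of 4 of these 24 genes, 2 that fell and 2 that rose, are shown because each holds the AP-1 motif TGANTCA, which is read by a factor family that works at SWI/SNF-dependent enhancers. They are the 4 that hold it among the 20 of the 24 genes with a window, and TATAAA was the only other motif searched. The windows are those of RefSeq on GRCm38.p6, from 250 bases before to 50 after the annotated start, 5′ to 3′ on the strand of the gene, while the counts were made on mm9 per the submitters' processing notes. They lie at chr2:24336610-24336909 (+ strand) for Il1rn, chr3:92385435-92385734 (+ strand) for Sprr2h, chr7:127946676-127946975 (- strand) for Prss36 and chr2:44927187-44927486 (- strand) for Gtdc1. Capitals mark TGANTCA on either strand and, in Sprr2h, TATAAA.
Il1rn: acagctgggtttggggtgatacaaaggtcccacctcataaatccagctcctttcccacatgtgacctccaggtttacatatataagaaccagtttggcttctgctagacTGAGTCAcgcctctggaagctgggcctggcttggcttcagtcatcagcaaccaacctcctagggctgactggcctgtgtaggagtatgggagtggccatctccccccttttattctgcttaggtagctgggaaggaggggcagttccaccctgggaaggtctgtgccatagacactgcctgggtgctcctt
Sprr2h: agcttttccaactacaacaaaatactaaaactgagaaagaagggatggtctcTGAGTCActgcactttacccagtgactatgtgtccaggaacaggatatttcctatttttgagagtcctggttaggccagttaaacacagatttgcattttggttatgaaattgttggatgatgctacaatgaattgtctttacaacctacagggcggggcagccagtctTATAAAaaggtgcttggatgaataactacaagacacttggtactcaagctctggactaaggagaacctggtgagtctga
Prss36: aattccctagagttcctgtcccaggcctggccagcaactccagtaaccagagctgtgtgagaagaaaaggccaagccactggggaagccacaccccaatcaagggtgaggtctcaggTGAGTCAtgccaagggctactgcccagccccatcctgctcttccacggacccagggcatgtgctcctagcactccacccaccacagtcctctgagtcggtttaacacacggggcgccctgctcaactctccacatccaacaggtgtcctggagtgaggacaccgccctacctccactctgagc
Gtdc1: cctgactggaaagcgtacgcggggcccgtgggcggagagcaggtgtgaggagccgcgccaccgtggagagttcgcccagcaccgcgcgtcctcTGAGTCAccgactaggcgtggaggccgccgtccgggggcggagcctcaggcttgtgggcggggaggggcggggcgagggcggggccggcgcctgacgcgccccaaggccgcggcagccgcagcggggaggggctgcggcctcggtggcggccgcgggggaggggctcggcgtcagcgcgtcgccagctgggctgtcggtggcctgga
The AP-1 letters begin 141 bases before the start in Il1rn, 198 in Sprr2h, 133 in Prss36 and 157 in Gtdc1, and the TATAAA of Sprr2h begins 29 bases before its start. Il1rn and Gtdc1 have 3 annotated windows each, of which the first listed is shown. Of 27025 such windows in the table, 1 per gene, 7.93% hold TGANTCA and 14.2% hold TATAAA on either strand. The motif thus stood in genes that fell and in genes that rose, and a match in these letters is a description, not a binding site. Base composition over all genes that fell was not compared, since 78.4% of them, and 74.2% of those that fell at least 2-fold, had a window in the table used here, under the 80% set for such a check.

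Genes were then grouped into lists by their role, and counts of the main fit are to be read against 14.4% of all tested genes falling and 9.35% rising. These shares do not apply to list counts under other settings. With 1 of the 4 libraries at 6 h left out, fewer of all tested genes were called, both higher and lower. A lower list count there does not by itself mark that list. No list was tested as a set, and where none of a list passed, the counts at an unadjusted p and by DESeq2 and limma-voom stand beside it. Beyond the values given below, 10 of 24 list counts of 0 or 1 took another value, of 2 at most, when 1 of the 4 libraries at 6 h was left out. Called genes named for a list were chosen among those without overlap of the groups, so their lack of overlap is fixed by that choice. The plot of list shares gives the lists reported here that have at least 10 tested members.

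**Figure D3:**
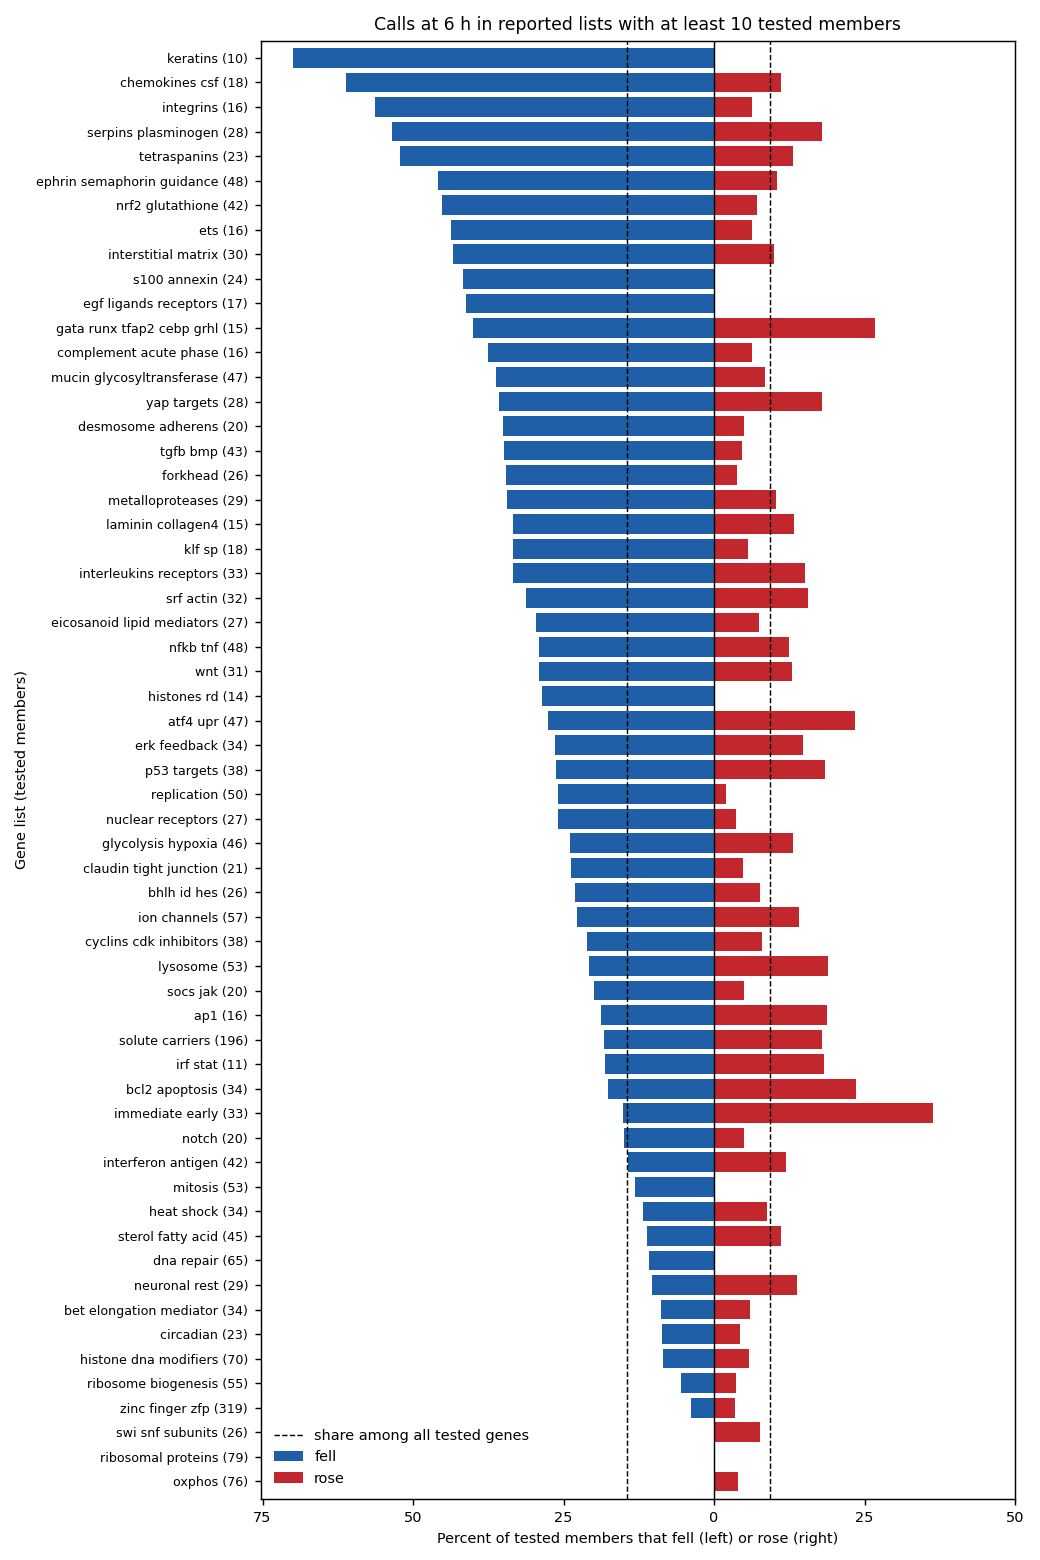
Percent of tested members of each reported gene list that fell (blue, left) or rose (red, right) after 6 h of BRM014; the number of tested members is in parentheses. Dashed lines mark 14.4% and 9.35%, the shares of all tested genes that fell and rose. Keratins (without Krt6a and Krt6b), chemokines and integrins have the longest blue bars, at 70.0%, 61.1% and 56.2%, and immediate early genes the longest red bar, at 36.4%.

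Keratins, desmosomal proteins and tight junction genes form the intermediate filament network and the seams between epithelial cells. Of 10 tested keratin genes with a number alone after Krt, 7 fell and 3 were not called, with a median log2 change of -1.54, and none rose (edgeR, with 0 at an unadjusted p below 0.05, 0 by DESeq2 and 0 by limma-voom). With the near copies Krt6a and Krt6b, which the list did not take in, 9 of 12 tested keratins fell. Krt8 was not called, at 2104 and 2081 CPM in DMSO and 1829 and 2063 CPM in BRM014. Nor was Krt18, at 3293 and 2845 CPM in DMSO and 3165 and 3373 CPM in BRM014. The epithelial filament gene Krt80 was at 103 and 87.1 CPM in DMSO and 21.9 and 19.6 CPM in BRM014, and Krt19 was at 668 and 776 CPM in DMSO and 279.8 and 403 CPM in BRM014. Both fell without overlap (-2.20 ± 0.13, adjusted p = 1.48e-07 and -1.08 ± 0.14, adjusted p = 8.78e-05, edgeR), as did the intestinal-type keratin Krt20 (from a mean of 36.5 to 13.8 CPM). Myoepithelial markers summed to 26.0 to 29.3 CPM in DMSO and 17.99 to 19.1 CPM in BRM014, with Trp63 at 0 counts. That sum is mostly Mylk (from a mean of 16.3 to 16.8 CPM, 0.05 ± 0.14, adjusted p = 0.846) and Krt14 (from a mean of 10.6 to 1.57 CPM), and in bulk samples fewer cells of a type and less RNA per cell cannot be told apart. Of 20 tested desmosome and adherens junction genes, 7 fell, 1 rose and 12 were not called (median log2 change -0.18). Ppl, which encodes periplakin and links keratin filaments to desmosomes, was at 273 and 292 CPM in DMSO and 51.7 and 55.6 CPM in BRM014 (-2.40 ± 0.10). Pkp1, a desmosomal plakophilin, was at 45.3 and 42.4 CPM in DMSO and 8.72 and 6.86 CPM in BRM014 (-2.50 ± 0.26). Neither gene had overlapping groups. The β-catenin gene Ctnnb1 fell (from a mean of 1901 to 1046 CPM), whereas the related plakophilin Pkp2 rose (from a mean of 53.3 to 91.7 CPM, 0.78 ± 0.11). Of 21 tested tight junction genes, 5 fell, 1 rose and 15 were not called (median log2 change -0.06, or 0.02 scaled to library totals). Beside Cldn2 these included the junctional adhesion molecule Jam2 (from a mean of 10.4 to 3.48 CPM) and Marveld1 (from a mean of 110.4 to 74.1 CPM). Falling tight junction genes numbered 3 each time without DMSO replicate 1, DMSO replicate 2, BRM014 replicate 1 and BRM014 replicate 2 in turn. Falling tight junction genes numbered 3 scaled to library totals.

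Integrins anchor epithelial cells to laminins and collagens. Of 16 tested integrin genes, 9 fell, 1 rose and 6 were not called (median log2 change -0.62). The β7 chain gene Itgb7 was at 269 and 242 CPM in DMSO and 41.2 and 35.2 CPM in BRM014, the β6 chain gene Itgb6 at 35.5 and 58.2 CPM in DMSO and 8.83 and 10.4 CPM in BRM014, and the α3 chain gene Itga3, whose product binds laminin, at 795 and 653 CPM in DMSO and 348 and 377 CPM in BRM014. All 3 fell without overlap (-2.74 ± 0.17, adjusted p = 2.67e-07, -2.28 ± 0.23, adjusted p = 1.13e-05 and -0.998 ± 0.12, adjusted p = 3.71e-05, edgeR), and Itgb5 rose (from a mean of 66.5 to 109 CPM). Of 15 tested basement membrane genes, 5 fell, 2 rose and 8 were not called (median log2 change -0.30). The laminin β3 gene Lamb3 (from a mean of 357 to 171 CPM), the anchoring collagen Col7a1 (from a mean of 20.1 to 4.53 CPM) and the proteoglycan Agrn (from a mean of 270.0 to 152 CPM) fell, and the laminin β2 gene Lamb2 rose (from a mean of 121 to 183 CPM). Of 30 tested genes of the interstitial matrix, 13 fell, 3 rose and 14 were not called (median log2 change -0.40). Sparc, a matrix glycoprotein, was at 881 and 894 CPM in DMSO and 352 and 383 CPM in BRM014 (-1.27 ± 0.11). The collagen Col12a1 (from a mean of 10.98 to 1.45 CPM), the proteoglycan Vcan (from a mean of 57.5 to 22.4 CPM) and the prolyl hydroxylase subunit P4ha2 (from a mean of 26.3 to 8.76 CPM) also fell, while thrombospondin 1 (Thbs1) rose (from a mean of 119 to 212 CPM). The fibroblast collagen gene Col1a1, a member of this list and of the fibroblast markers, had counts of 8 and 20 in the DMSO libraries against 2 and 5 in BRM014, and the summed fibroblast markers were 1.12 to 1.61 CPM in DMSO and 0.718 to 0.853 CPM in BRM014. The part of such cells in the matrix genes was not tested. Rising basement membrane genes numbered 2, 2, 2 and 1 and rising interstitial matrix genes 1, 2, 1 and 1 without DMSO replicate 1, DMSO replicate 2, BRM014 replicate 1 and BRM014 replicate 2 in turn.

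Proteases and their inhibitors remodel this matrix. Of 29 tested metalloprotease genes, 10 fell, 3 rose and 16 were not called (median log2 change -0.47). The collagenase gene Mmp13 was at 30.6 and 25.2 CPM in DMSO and 3.18 and 2.73 CPM in BRM014, and Mmp14, the membrane-type metalloprotease, was at 206 and 174 CPM in DMSO and 85.6 and 95.1 CPM in BRM014. The groups did not overlap for either gene, with log2 changes of -3.24 ± 0.23 and -1.07 ± 0.11. Adamts1 (from a mean of 8.28 to 26.5 CPM, 1.68 ± 0.28) and Adamtsl4 (from a mean of 16.5 to 47.2 CPM, 1.52 ± 0.12) rose. Of 28 tested serpin, serine protease and plasminogen system genes, 15 fell, 5 rose and 8 were not called (median log2 change -0.60). They included Serpinb5, which encodes maspin (from a mean of 26.9 to 4.01 CPM, -2.76 ± 0.25), Serpinb6a (from a mean of 942 to 615 CPM) and the protease Prss23 (from a mean of 47.4 to 22.2 CPM). Of 24 tested S100 and annexin genes, 10 fell and 14 were not called, with a median log2 change of -0.49, and none rose (edgeR, with 0 at an unadjusted p below 0.05, 0 by DESeq2 and 0 by limma-voom). The annexins Anxa8 (from a mean of 649 to 199 CPM, -1.70 ± 0.14) and Anxa3 (from a mean of 1584 to 924 CPM) and the calcium-binding protein genes S100a4 (from a mean of 795 to 417 CPM) and S100a3 (from a mean of 9.17 to 2.71 CPM) were the 4 with the smallest p. Falling genes of the serpin and protease list numbered 9, 12, 11 and 9 and rising genes of the serpin and protease list 4, 1, 4 and 2 without DMSO replicate 1, DMSO replicate 2, BRM014 replicate 1 and BRM014 replicate 2 in turn. Falling genes of the serpin and protease list numbered 9 with a stricter filter.

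Most tested chemokine genes fell, and genes of interleukins, their receptors and complement fell and rose. Of 18 tested chemokine and colony-stimulating factor genes, 11 fell, 2 rose and 5 were not called (median log2 change -1.19). Cxcl5, a neutrophil chemokine, was at 113 and 135 CPM in DMSO and 31.5 and 34.4 CPM in BRM014 (-1.91 ± 0.13), and Ccl9 was at 8.95 and 8.47 CPM in DMSO and 1.28 and 0.981 CPM in BRM014 (-2.95 ± 0.26). Cxcl10, an interferon-induced chemokine, ran the other way, at 0.102 and 0.260 CPM in DMSO and 1.64 and 4.31 CPM in BRM014 (4.03 ± 0.63, adjusted p = 4.14e-04, edgeR). The DMSO level of Cxcl10 was near 0, so the size of its change is uncertain. It was 3.15 without BRM014 replicate 2 and 4.82 without DMSO replicate 2. The groups were separate for all 3 genes. Of 33 tested interleukin and interleukin receptor genes, 11 fell, 5 rose and 17 were not called (median log2 change -0.45). Beside Il18rap and Il1rn, the receptor genes Il22ra1 (from a mean of 12.5 to 2.57 CPM) and Il1rl1 (from a mean of 3.90 to 0.401 CPM) fell, and Il11ra1 (from a mean of 7.92 to 17.7 CPM) and Il13ra1 (from a mean of 6.21 to 17.6 CPM) rose. Of 16 tested complement and acute phase genes, 6 fell, 1 rose and 9 were not called (median log2 change -0.95). The copper carrier ceruloplasmin, Cp, was at 96.1 and 105 CPM in DMSO and 23.7 and 24.7 CPM in BRM014 (-2.05 ± 0.17), and the lipopolysaccharide co-receptor Cd14 (from a mean of 88.7 to 44.7 CPM) and complement factor B, Cfb (from a mean of 3.81 to 1.11 CPM), fell as well. Rising chemokine and colony-stimulating factor genes numbered 2, 1, 3 and 1 and rising interleukin genes 3, 5, 3 and 2 without DMSO replicate 1, DMSO replicate 2, BRM014 replicate 1 and BRM014 replicate 2 in turn. Falling chemokine and colony-stimulating factor genes numbered 7 with a stricter filter.

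Genes of NF-κB and interferon signaling were called in both directions. NF-κB and TNF genes, at 29.2% lower and 12.5% higher, were above the shares of all tested genes (14.4% and 9.35%). Interferon and antigen presentation genes, at 14.3% lower and 11.9% higher at 6 h, were close to the shares of all tested genes. Of 48 tested genes of NF-κB and TNF signaling, 14 fell, 6 rose and 28 were not called (median log2 change -0.04, or 0.04 scaled to library totals). Tnfrsf1b, which encodes the second TNF receptor, was at 36.5 and 44.9 CPM in DMSO and 9.60 and 9.76 CPM in BRM014 (-2.07 ± 0.14), Tnfaip2 was at 18.1 and 14.1 CPM in DMSO and 0.924 and 2.05 CPM in BRM014 (-3.40 ± 0.30), and Ikbkg, the regulatory subunit of the IκB kinase, was at 105 and 139.6 CPM in DMSO and 42.1 and 41.3 CPM in BRM014 (-1.55 ± 0.14). Each of these genes was lower in both BRM014 libraries, while the NF-κB subunit gene Nfkb1 rose (from a mean of 108 to 154 CPM). Of 42 tested interferon response and antigen presentation genes, 6 fell, 5 rose and 31 were not called (median log2 change 0.05). The GTPases Irgm1 (from a mean of 40.2 to 22.6 CPM) and Mx1 (from a mean of 1.39 to 0.047 CPM) and the membrane protein gene Ifitm2 (from a mean of 122.95 to 82.1 CPM) fell, and the RNA sensor Ifih1 rose (from a mean of 0.876 to 3.08 CPM, 1.81 ± 0.32). At 30 h 27 members of that list were higher and 5 lower, against 16.8% and 19.1% of all tested genes, and the difference between the times passed its test for 9 of them. Of 20 tested genes of JAK signaling and its SOCS inhibitors, 4 fell, 1 rose and 15 were not called (median log2 change 0.08), with Socs2 (from a mean of 10.4 to 4.49 CPM) and the phosphatase gene Ptpn6 (from a mean of 2.39 to 0.401 CPM) lower and Socs1 higher. Falling NF-κB and TNF genes numbered 7, 11, 10 and 9 and rising NF-κB and TNF genes 6, 3, 4 and 2 without DMSO replicate 1, DMSO replicate 2, BRM014 replicate 1 and BRM014 replicate 2 in turn. Rising interferon genes numbered 1, 3, 2 and 1 and falling JAK and SOCS genes 3, 4, 4 and 2 under the same omissions. Rising interferon genes numbered 9 with no filter on low counts, 3 with a stricter filter and 3 by limma-voom.

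In the lists of growth factor signaling more genes fell than rose, as among all tested genes (14.4% lower and 9.35% higher). The share that fell was 41.2% for EGF family genes, 34.9% for TGF-β and BMP genes and 29.0% for WNT genes. It was 15% for Notch genes, close to that of all tested genes. Of 17 tested genes of EGF family ligands and receptors, 7 fell and 10 were not called, with a median log2 change of -0.51, and none rose (edgeR, with 1 at an unadjusted p below 0.05, 1 by DESeq2 and 0 by limma-voom). Nrg1, which encodes neuregulin 1, was at 136 and 109.7 CPM in DMSO and 56.2 and 46.0 CPM in BRM014, and the amphiregulin gene Areg was at 223 and 141 CPM in DMSO and 78.6 and 73.5 CPM in BRM014. Both fell without overlap (-1.27 ± 0.12 and -1.26 ± 0.21), as did epiregulin, Ereg (from a mean of 107 to 47.4 CPM), and Lrig1, an inhibitor of the EGF receptor (from a mean of 122 to 59.3 CPM). Of 43 tested genes of TGF-β and BMP signaling, 15 fell, 2 rose and 26 were not called (median log2 change -0.20). The ligand Bmp4 was at 17.5 and 17.98 CPM in DMSO and 4.82 and 4.95 CPM in BRM014 (-1.86 ± 0.15) and the stress cytokine Gdf15 at 6.76 and 6.29 CPM in DMSO and 0.359 and 0.597 CPM in BRM014 (-3.73 ± 0.30), and the groups did not overlap for either. The type I receptor Tgfbr1 (from a mean of 72.5 to 34.9 CPM) and the BMP mediator Smad1 (from a mean of 50.8 to 28.8 CPM) fell, while the ligand Tgfb3 rose (from a mean of 2.64 to 6.10 CPM). Of 31 tested WNT pathway genes, 9 fell, 4 rose and 18 were not called (median log2 change -0.13). Porcn, needed for WNT secretion (from a mean of 19.8 to 6.19 CPM), and the receptor Fzd7 (from a mean of 24.5 to 11.6 CPM) fell, and the receptors Fzd2 (from a mean of 19.6 to 38.1 CPM) and Fzd5 (from a mean of 63.7 to 102 CPM) rose. Of 20 tested Notch pathway genes, 3 fell, 1 rose and 16 were not called (median log2 change -0.28), the ligands Jag1 (from a mean of 52.4 to 23.9 CPM) and Dll1 (from a mean of 2.005 to 0.158 CPM) among the falls. Rising TGF-β and BMP genes numbered 1, 2, 2 and 1 and falling WNT genes 5, 4, 5 and 4 without DMSO replicate 1, DMSO replicate 2, BRM014 replicate 1 and BRM014 replicate 2 in turn. Rising WNT genes numbered 2 each time under the same omissions.

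Of 48 tested ephrin, semaphorin and netrin guidance genes, 22 fell, 5 rose and 21 were not called (median log2 change -0.39). The semaphorin and VEGF co-receptors Nrp1 and Nrp2 were at 298 and 302 CPM in DMSO and 141 and 128 CPM in BRM014 and at 161 and 154 CPM in DMSO and 81.5 and 88.0 CPM in BRM014. Both fell (-1.16 ± 0.09 and -0.90 ± 0.11) and without overlap. The ligands Efna1 (from a mean of 54.1 to 26.5 CPM) and Sema4f (from a mean of 5.90 to 0.470 CPM) fell too. Of 34 tested genes of ERK signaling and its feedback, 9 fell, 5 rose and 20 were not called (median log2 change -0.11): the phosphatase genes Dusp4 (from a mean of 64.0 to 27.4 CPM) and Dusp7 (from a mean of 34.3 to 19.6 CPM) fell and Dusp14 (from a mean of 29.8 to 49.5 CPM), Dusp19 (from a mean of 6.38 to 11.97 CPM) and the EGR corepressor Nab2 (from a mean of 27.3 to 61.1 CPM, 1.16 ± 0.16) rose. Of 28 tested YAP and TEAD target genes, 10 fell, 5 rose and 13 were not called (median log2 change 0.08). The LIM protein gene Ajuba (from a mean of 239 to 102 CPM) and the receptor tyrosine kinase Axl (from a mean of 1087 to 545 CPM) fell, whereas Ankrd1, a much used YAP target, rose at 669 and 502 CPM in DMSO and 1555 and 1404 CPM in BRM014 (1.34 ± 0.12), as did Cyr61 (from a mean of 408 to 709 CPM). Rising guidance genes numbered 3, 2, 3 and 0 and falling ERK feedback genes 5, 8, 7 and 5 without DMSO replicate 1, DMSO replicate 2, BRM014 replicate 1 and BRM014 replicate 2 in turn. Falling YAP target genes numbered 6 each time and rising YAP target genes 5, 4, 3 and 3 under the same omissions. Rising ERK feedback genes numbered 8 scaled to library totals. Rising YAP target genes numbered 8 scaled to library totals, 8 in a fit of the 6 h libraries alone and 8 with no filter on low counts.

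Genes of the actin cytoskeleton and its control were called in both directions. Beside Cdc42ep2, the GTPase-activating protein Arhgap27 (from a mean of 49.1 to 15.6 CPM), the exchange factor Arhgef40 (from a mean of 175 to 67.1 CPM) and Abi3 (from a mean of 5.09 to 0.316 CPM) fell. The related CDC42 effector Cdc42ep4 was at 21.3 and 22.7 CPM in DMSO and 55.8 and 60.1 CPM in BRM014 and rose (1.40 ± 0.11, adjusted p = 1.41e-06, edgeR), in contrast to Cdc42ep2. Arhgap18 (from a mean of 20.9 to 58.7 CPM) and the GTPase Rnd1 (from a mean of 28.8 to 68.1 CPM) rose too. Of 32 tested SRF target and actin genes, 10 fell, 5 rose and 17 were not called (median log2 change -0.18). The crosslinker filamin A, Flna, was at 2238 and 2043 CPM in DMSO and 1182 and 1109.5 CPM in BRM014 (-0.90 ± 0.10), and cytoplasmic γ-actin, Actg1, was at 565 and 443 CPM in DMSO and 735 and 896 CPM in BRM014 (0.69 ± 0.12). The former was lower and the latter higher in both BRM014 libraries, and Srf, which encodes the transcription factor, rose (from a mean of 54.9 to 92.2 CPM). Falling SRF target and actin genes numbered 5, 10, 4 and 5 and rising SRF target and actin genes 6, 3, 4 and 3 without DMSO replicate 1, DMSO replicate 2, BRM014 replicate 1 and BRM014 replicate 2 in turn.

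Several families of transcription factors held genes that fell. Of 26 tested forkhead genes, 9 fell, 1 rose and 16 were not called (median log2 change -0.14), and 7 of them fell at least 2-fold. Foxq1 was at 17.5 and 17.6 CPM in DMSO and 4.31 and 3.41 CPM in BRM014, Foxf2 was at 50.6 and 46.5 CPM in DMSO and 21.7 and 21.3 CPM in BRM014 and Foxp1 was at 251 and 217 CPM in DMSO and 122.80 and 115 CPM in BRM014. In each of them both BRM014 libraries were lower (-2.19 ± 0.17, -1.18 ± 0.12 and -0.98 ± 0.11). Of 16 tested ETS family genes, 7 fell, 1 rose and 8 were not called (median log2 change -0.36), with Ets2 at 564 and 568 CPM in DMSO and 235 and 237 CPM in BRM014 (-1.26 ± 0.10) and Elk3 (from a mean of 181 to 109 CPM) among the falls. Of 15 tested genes of the GATA, RUNX, AP-2, CEBP, TEAD and grainyhead families, 6 fell, 4 rose and 5 were not called (median log2 change -0.33). Within the CEBP family Cebpb fell, at 58.6 and 51.7 CPM in DMSO and 14.7 and 18.8 CPM in BRM014, while Cebpa rose, at 7.57 and 9.93 CPM in DMSO and 15.4 and 21.7 CPM in BRM014 (-1.72 ± 0.16, adjusted p = 6.85e-06 and 1.09 ± 0.18, adjusted p = 6.54e-04, edgeR). Tead3, a DNA-binding partner of YAP, fell (from a mean of 15.9 to 4.59 CPM). Of 18 tested KLF and SP genes, 6 fell, 1 rose and 11 were not called (median log2 change -0.06, or 0.03 scaled to library totals), with Klf5 (from a mean of 109.9 to 62.1 CPM) and Klf4 (from a mean of 91.7 to 47.6 CPM) lower. Of 26 tested basic helix-loop-helix, ID and HES genes, 6 fell, 2 rose and 18 were not called (median log2 change -0.03, or 0.06 scaled to library totals), with Twist2 (from a mean of 13.6 to 3.87 CPM) and Id2 (from a mean of 357 to 219.7 CPM) lower and Arnt (from a mean of 68.5 to 97.2 CPM) higher. Of 27 tested nuclear receptor genes, 7 fell, 1 rose and 19 were not called (median log2 change -0.23), with the vitamin D receptor Vdr (from a mean of 6.30 to 1.46 CPM), Pparg (from a mean of 8.03 to 3.15 CPM) and Hnf4a (from a mean of 206 to 133 CPM) lower. Pparg also makes up most of the summed adipocyte markers, which were 6.91 to 9.46 CPM in DMSO and 3.13 to 3.67 CPM in BRM014 with Lep, Cidec and Adipoq at 0 counts. Falling ETS genes numbered 4, 4, 4 and 5 and rising genes of the GATA to grainyhead list 3, 1, 1 and 2 without DMSO replicate 1, DMSO replicate 2, BRM014 replicate 1 and BRM014 replicate 2 in turn. Rising helix-loop-helix genes numbered 1, 3, 2 and 1 and falling nuclear receptors 6, 7, 4 and 6 under the same omissions.

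Immediate early genes, which respond to stimuli within minutes to hours, were called higher more often than any other list with at least 10 tested members. Of 33 tested immediate early genes, 5 fell, 12 rose and 16 were not called (median log2 change 0.41). Zfp36, which encodes an mRNA-destabilizing protein, was at 65.3 and 52.4 CPM in DMSO and 120.4 and 111 CPM in BRM014, and Ier5l was at 47.3 and 40.7 CPM in DMSO and 92.7 and 133 CPM in BRM014. Both rose without overlap (0.97 ± 0.12 and 1.36 ± 0.18), as did Btg2 and Srf. The related genes Ier5, at 177 and 149 CPM in DMSO and 62.0 and 50.8 CPM in BRM014, and Zfp36l2, at 252 and 189 CPM in DMSO and 111 and 117 CPM in BRM014, fell (-1.53 ± 0.16 and -0.95 ± 0.12). Of 16 tested genes of the AP-1 and MAF families, 3 fell, 3 rose and 10 were not called (median log2 change 0.06). Junb (from a mean of 261 to 125 CPM, -1.06 ± 0.18) and Maf (from a mean of 18.6 to 1.79 CPM, -3.39 ± 0.28) fell, and Atf3 (from a mean of 14.9 to 30.1 CPM, 1.02 ± 0.16) and Mafk (from a mean of 54.6 to 81.8 CPM) rose. The 319 tested zinc finger genes with Zfp symbols held few calls, with 12 lower (3.76%) and 11 higher (3.45%), of which Zfp462 was the most significant fall (from a mean of 37.9 to 15.5 CPM, -1.29 ± 0.14). Stat3 was higher (from a mean of 51.9 to 71.6 CPM) and Sox13 lower (from a mean of 31.8 to 16.4 CPM). Falling immediate early genes numbered 3, 6, 4 and 3 and rising AP-1 and MAF genes 5, 2, 3 and 2 without DMSO replicate 1, DMSO replicate 2, BRM014 replicate 1 and BRM014 replicate 2 in turn. Falling Zfp genes numbered 8, 10, 5 and 6 and rising Zfp genes 5, 10, 3 and 3 under the same omissions. Falling immediate early genes numbered 9 in a fit of the 6 h libraries alone. Rising Zfp genes numbered 27 scaled to library totals, 20 in a fit of the 6 h libraries alone and 18 with no filter on low counts.

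Surface and secretory genes of the epithelium fell in several further lists. Of 23 tested tetraspanin and uroplakin genes, 12 fell, 3 rose and 8 were not called (median log2 change -0.37), with Tspan15 at 146 and 162 CPM in DMSO and 62.1 and 58.4 CPM in BRM014 (-1.35 ± 0.10) and the uroplakin Upk1b (from a mean of 23.1 to 7.60 CPM) lower and Cd82 (from a mean of 13.5 to 23.7 CPM) higher. Of 47 tested mucin and glycosyltransferase genes, 17 fell, 4 rose and 26 were not called (median log2 change -0.32). The transmembrane mucin Muc1 was at 76.3 and 65.8 CPM in DMSO and 17.9 and 16.6 CPM in BRM014 (-2.04 ± 0.14), and Gcnt1, which branches O-glycans, was at 15.0 and 18.3 CPM in DMSO and 3.13 and 3.96 CPM in BRM014 (-2.22 ± 0.22). Neither showed overlap between the groups. Of 27 tested genes of prostaglandin and lipid mediator metabolism, 8 fell, 2 rose and 17 were not called (median log2 change -0.05, or 0.03 scaled to library totals). Both cyclooxygenase genes fell: Ptgs2 was at 491 and 323 CPM in DMSO and 106 and 74.3 CPM in BRM014 (-2.18 ± 0.24), and Ptgs1 was at 12.4 and 17.9 CPM in DMSO and 3.18 and 4.52 CPM in BRM014 (-1.96 ± 0.26). The lysophosphatidic acid receptor Lpar2 (from a mean of 87.5 to 35.2 CPM) also fell. Of 57 tested ion channel, connexin, aquaporin and purinergic receptor genes, 13 fell, 8 rose and 36 were not called (median log2 change -0.12): beside Aqp5, the potassium channel Kcnn4 fell (from a mean of 199 to 98.0 CPM). Falling tetraspanins numbered 9, 8, 5 and 6 and falling mucin and glycosyltransferase genes 15, 12, 11 and 12 without DMSO replicate 1, DMSO replicate 2, BRM014 replicate 1 and BRM014 replicate 2 in turn. Rising mucin and glycosyltransferase genes numbered 1, 1, 1 and 0 and rising lipid mediator genes 1 each time under the same omissions. Falling channel genes numbered 10, 6, 5 and 8 under the same omissions.

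Of 196 tested solute carriers, 36 fell (18.4%) and 35 rose (17.9%), both shares above those of all tested genes, with a median log2 change of 0.00. The creatine transporter Slc6a8 was at 161 and 167 CPM in DMSO and 53.4 and 58.5 CPM in BRM014 (-1.55 ± 0.11) and the bicarbonate transporter Slc4a4 at 77.0 and 72.5 CPM in DMSO and 33.5 and 31.4 CPM in BRM014 (-1.21 ± 0.10). On the other side the metal transporter Slc39a14 (from a mean of 55.9 to 94.2 CPM) and the arginine transporter Slc7a1 (from a mean of 242 to 384 CPM) rose. Of 42 tested genes of the NRF2 and glutathione systems, 19 fell, 3 rose and 20 were not called (median log2 change -0.32). Fth1, the heavy chain of ferritin, was at 4862 and 3951 CPM in DMSO and 2013 and 2010.1 CPM in BRM014 (-1.13 ± 0.11), and the epoxide hydrolase Ephx1 was at 92.5 and 103 CPM in DMSO and 32.9 and 32.4 CPM in BRM014 (-1.58 ± 0.12). Slc7a11, the cystine transporter, fell as well (from a mean of 12.8 to 1.72 CPM), but sulfiredoxin, Srxn1, was higher at 119 and 121 CPM in DMSO and 262 and 274 CPM in BRM014 (1.16 ± 0.09, adjusted p = 1.99e-06, edgeR). All of these groups were separate. Of 46 tested genes of glycolysis and the hypoxia response, 11 fell, 6 rose and 29 were not called (median log2 change -0.13), with Vegfa (from a mean of 122 to 58.8 CPM) and Ndrg1 (from a mean of 159 to 47.3 CPM) lower and Pfkfb3 (from a mean of 26.4 to 65.1 CPM) and Ddit4 (from a mean of 37.6 to 57.2 CPM) higher. Of 45 tested genes of sterol and fatty acid synthesis, 5 fell, 5 rose and 35 were not called (median log2 change 0.16), with Dhcr7, a late enzyme of cholesterol synthesis, higher (from a mean of 57.0 to 118 CPM). Of 53 tested lysosome genes, 11 fell, 10 rose and 32 were not called (median log2 change -0.00, or 0.08 scaled to library totals): the hydrolases Gla (from a mean of 48.0 to 20.9 CPM) and Gusb (from a mean of 124 to 83.8 CPM) fell and the hydrolases Sgsh (from a mean of 11.3 to 29.1 CPM) and Manba (from a mean of 43.2 to 88.2 CPM) rose. Falling solute carriers numbered 27, 23, 21 and 19 and rising solute carriers 22, 24, 24 and 16 without DMSO replicate 1, DMSO replicate 2, BRM014 replicate 1 and BRM014 replicate 2 in turn. Falling sterol genes numbered 4, 4, 3 and 4 and rising sterol genes 2, 4, 2 and 1 under the same omissions. Falling lysosome genes numbered 6, 8, 5 and 9 and rising lysosome genes 6, 6, 8 and 5 under the same omissions. Rising sterol genes numbered 11 scaled to library totals, 16 in a fit of the 6 h libraries alone, 12 with no filter on low counts and 3 by DESeq2.

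Genes of the ATF4, p53 and cell death lists were called in both directions, each more often than all tested genes (14.4% lower and 9.35% higher). Heat shock genes were called less often, with 11.8% lower and 8.82% higher. Of 47 tested genes of the ATF4 and unfolded protein responses, 13 fell, 11 rose and 23 were not called (median log2 change -0.04, or 0.04 scaled to library totals). Chac1 and Atf3 rose with Gpt2 (from a mean of 34.8 to 58.0 CPM), while Nupr1, Gdf15, Cebpb and Slc7a11, which belong to the same list, fell. Of 38 tested p53 target genes, 10 fell, 7 rose and 21 were not called (median log2 change -0.06, or 0.03 scaled to library totals). Bbc3, which encodes the death promoter PUMA, was at 12.05 and 7.33 CPM in DMSO and 26.9 and 28.3 CPM in BRM014 (1.51 ± 0.19, adjusted p = 7.42e-05, edgeR), and Ccng2 (from a mean of 31.9 to 15.6 CPM) and Perp (from a mean of 80.8 to 49.2 CPM) fell. Of 34 tested BCL2 family and cell death genes, 6 fell, 8 rose and 20 were not called (median log2 change -0.04, or 0.04 scaled to library totals). The pore-forming protein of pyroptosis, Gsdmd, was at 197 and 197 CPM in DMSO and 54.0 and 62.1 CPM in BRM014 (-1.76 ± 0.10), and the BH3-only gene Bmf was at 20.4 and 24.8 CPM in DMSO and 2.36 and 3.50 CPM in BRM014 (-2.93 ± 0.20). Both were lower in BRM014 without overlap, as was the survival gene Bcl2l1 (from a mean of 215 to 122.59 CPM), and its relative Bcl2l2 rose (from a mean of 26.7 to 44.3 CPM). Of 34 tested heat shock genes, 4 fell, 3 rose and 27 were not called (median log2 change -0.01, or 0.08 scaled to library totals), with Hspa4l lower (from a mean of 288 to 156 CPM). Falling ATF4 genes numbered 8, 12, 11 and 6 and falling p53 targets 5, 11, 8 and 5 without DMSO replicate 1, DMSO replicate 2, BRM014 replicate 1 and BRM014 replicate 2 in turn. Rising p53 targets numbered 7, 3, 3 and 6 and falling BCL2 family and cell death genes 3, 3, 4 and 3 under the same omissions. Rising BCL2 family and cell death genes numbered 4, 5, 5 and 4 and falling heat shock genes 3, 3, 2 and 3 under the same omissions. Rising heat shock genes numbered 3, 1, 2 and 1 under the same omissions. Rising p53 targets numbered 11 scaled to library totals, 11 in a fit of the 6 h libraries alone and 11 with no filter on low counts. Falling BCL2 family and cell death genes numbered 3 scaled to library totals.

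Genes of the cell cycle were called lower more often than higher at 6 h, as were all tested genes (14.4% and 9.35%). The share that fell was above 14.4% for replication genes (26%) and for cyclin, CDK and CDK inhibitor genes (21.1%). It was below 14.4% for mitosis genes (13.2%) and DNA repair genes (10.8%). Of 38 tested cyclin, CDK and CDK inhibitor genes, 8 fell, 3 rose and 27 were not called (median log2 change -0.08, or 0.01 scaled to library totals). The phosphatase gene Cdc25b was at 116 and 138 CPM in DMSO and 49.7 and 49.9 CPM in BRM014 (-1.35 ± 0.12), and the CDK inhibitor genes Cdkn2b (from a mean of 33.1 to 56.01 CPM) and Cdkn2a (from a mean of 21.7 to 35.3 CPM) rose together with Ccnd2. Cdkn2a and Cdkn2b are neighbours in the genome, and the 2 products of Cdkn2a were counted as 1 gene. Of 50 tested DNA replication genes, 13 fell, 1 rose and 36 were not called (median log2 change -0.18), none of them by 2-fold. Rrm2, the ribonucleotide reductase subunit, was at 624 and 635 CPM in DMSO and 380.4 and 364 CPM in BRM014 (-0.76 ± 0.10). Of 53 tested mitosis genes, 7 fell and 46 were not called, with a median log2 change of -0.18, and none rose (edgeR, with 1 at an unadjusted p below 0.05, 0 by DESeq2 and 0 by limma-voom). Of 65 tested DNA repair genes, 7 fell and 58 were not called, with a median log2 change of -0.09, and none rose (edgeR, with 3 at an unadjusted p below 0.05, 0 by DESeq2 and 0 by limma-voom). At 30 h 37 of 50 replication genes and 36 of 53 mitosis genes were lower, against 19.1% of all tested genes, and the difference between the times passed its test for 6 and 3 of them. Falling cyclin and CDK genes numbered 5, 8, 7 and 4 and falling replication genes 4, 7, 6 and 3 without DMSO replicate 1, DMSO replicate 2, BRM014 replicate 1 and BRM014 replicate 2 in turn. Falling mitosis genes numbered 3, 6, 2 and 2 and falling repair genes 2, 3, 2 and 1 under the same omissions. Falling replication genes numbered 8 scaled to library totals. Falling mitosis genes numbered 11 in a fit of the 6 h libraries alone. Falling repair genes numbered 4 scaled to library totals.

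Some large groups were nearly without calls, while some smaller lists given after them were not. Shares above those of all tested genes were found for histone (28.6% fell), SOX (33.3% fell) and Hox genes (28.6% rose). The same held for IRF and STAT genes (18.2% each way) and for rises of neuronal genes (13.8%). These shares rest on few called genes. Of 79 tested ribosomal protein genes none rose (edgeR, with 2 at an unadjusted p below 0.05, 0 by DESeq2 and 0 by limma-voom) and none fell (edgeR, with 4 at an unadjusted p below 0.05, 0 by DESeq2 and 0 by limma-voom), and their median log2 change was -0.07, or 0.01 scaled to library totals. Of 76 tested genes of oxidative phosphorylation 3 rose and none fell (edgeR, with 0 at an unadjusted p below 0.05, 0 by DESeq2 and 0 by limma-voom), with a median log2 change of 0.02, led by Atp5s (from a mean of 4.06 to 9.47 CPM). Of 55 genes of ribosome biogenesis 2 rose and 3 fell, and of 34 genes of BET, elongation and Mediator complexes 2 rose and 3 fell, with Hexim2, an inhibitor of the elongation kinase, at 1.22 and 1.35 CPM in DMSO and 3.80 and 3.07 CPM in BRM014 (1.41 ± 0.28). Of 70 tested histone and DNA modifying enzyme genes, 6 fell, 4 rose and 60 were not called (median log2 change -0.09). Hdac7 was at 252 and 229 CPM in DMSO and 92.2 and 104 CPM in BRM014 (-1.29 ± 0.11), and the maintenance methyltransferase gene Dnmt1 was at 464 and 442 CPM in DMSO and 316 and 326 CPM in BRM014 (-0.50 ± 0.10). Both fell, while Rnf2, a catalytic subunit of Polycomb complex 1, rose (from a mean of 38.2 to 59.5 CPM). Of 14 tested histone genes, 4 fell and 10 were not called, with a median log2 change of -0.85, and none rose (edgeR, with 0 at an unadjusted p below 0.05, 0 by DESeq2 and 0 by limma-voom), with the linker histone gene Hist1h1c lower (from a mean of 67.7 to 27.5 CPM). Of 23 tested circadian clock genes, 2 fell, 1 rose and 20 were not called (median log2 change 0.02), with Bhlhe41 lower (from a mean of 21.0 to 7.87 CPM). Of 7 tested Hox genes 2 rose and none fell (edgeR, with 0 at an unadjusted p below 0.05, 0 by DESeq2 and 0 by limma-voom), of 6 tested SOX genes 2 fell and none rose (edgeR, with 0 at an unadjusted p below 0.05, 0 by DESeq2 and 0 by limma-voom), and of 11 tested IRF and STAT genes 2 rose and 2 fell. Of 29 tested neuronal genes, 3 fell, 4 rose and 22 were not called (median log2 change 0.20), with the secreted neuropeptide precursor Vgf at 0.712 and 0.884 CPM in DMSO and 5.85 and 16.8 CPM in BRM014 (3.83 ± 0.47, adjusted p = 5.92e-05, edgeR). Both BRM014 values of Vgf were above both DMSO values. Markers of neurons and glia summed to 38.6 to 42.9 CPM in DMSO and 53.9 to 58.7 CPM in BRM014, nearly all of it Mbp, with Snap25 and Gfap at 0 counts. Rising oxidative phosphorylation genes numbered 3, 2, 1 and 1 and falling ribosome biogenesis genes 0, 2, 1 and 0 without DMSO replicate 1, DMSO replicate 2, BRM014 replicate 1 and BRM014 replicate 2 in turn. Rising ribosome biogenesis genes numbered 2, 0, 0 and 0 and falling BET, elongation and Mediator genes 0, 3, 2 and 0 under the same omissions. Rising BET, elongation and Mediator genes numbered 1 each time and falling clock genes 1, 2, 2 and 1 under the same omissions. Rising Hox genes numbered 1, 1, 1 and 0 and falling SOX genes 1, 3, 2 and 1 under the same omissions. Falling IRF and STAT genes numbered 0, 0, 0 and 1 and rising IRF and STAT genes 1, 2, 2 and 1 under the same omissions. Rising modifying enzyme genes numbered 4, 4, 3 and 1 and falling histone genes 1, 3, 2 and 2 under the same omissions. Falling neuronal genes numbered 2, 2, 1 and 1 and rising neuronal genes 2, 3, 3 and 2 under the same omissions. Rising modifying enzyme genes numbered 10 scaled to library totals, 9 in a fit of the 6 h libraries alone, 7 with no filter on low counts, 7 with a stricter filter and 7 by DESeq2.

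A few genes were nearly silent in DMSO and had counts in BRM014. Of 102 tested genes with at most 3 counts in each DMSO library at 6 h, 19 were called, all of them higher, which the choice of low DMSO values fixes. Sprr3, a cornified envelope gene, had counts of 0 and 0 in the DMSO libraries against 19 and 34 in BRM014. Spry4, an inhibitor of receptor tyrosine kinase signaling, had counts of 0 and 2 in the DMSO libraries against 24 and 34 in BRM014. The claudin gene Cldn1 had counts of 3 and 0 in the DMSO libraries against 12 and 31 in BRM014, and its call ended without DMSO replicate 2 (adjusted p = 0.0534) or BRM014 replicate 2 (adjusted p = 0.0783, both by edgeR). All of these levels were low, and their fold changes are not given because the DMSO counts were at or near 0. Trpm3, an ion channel gene, had counts of 1 and 3 in the DMSO libraries against 24 and 23 in BRM014, and Prdm8, which encodes a PR domain regulator, had counts of 0 and 1 in the DMSO libraries against 13 and 14 in BRM014.

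Genes that fell lay next to each other more often than their overall share. In the order of the RefSeq annotation of GRCm38, 21.2% of genes whose next tested gene fell had fallen too, against 14.4% of all 11782 genes with a next tested gene and 11.1% of those whose next gene rose. Where the next gene fell at least 2-fold the share was 25.2% of 656 genes. Genes that rose did likewise, at 15.9% where the next gene rose against 9.37% of all. The longest run held 9 falling genes, from Serpinb1a through Serpinb6 and Serpinb9 genes to Nqo2 and Ripk1, of the serpin cluster that inhibits granule proteases. The keratin gene clusters gave 2 runs of 5, Krt20, Krtap1-5, Krt19, Krt14 and Krt16 in the type I cluster and Krt80, Krt6b, Krt6a, Krt76 and Krt79 in the type II cluster. Other runs held Gsta4, Gsta1, Gm10639 and Gsta2 after Ick, the Prl2c genes between Gpr137b-ps and Gpr137b, and S100a14, S100a16, S100a3 and S100a4. Members of the Serpinb6, Serpinb9, Prl2c, Krt6, Gsta and Sprr2 groups are near copies, so the counting could have split their reads, and the runs that hold them are uncertain. Overlapping neighbours could share reads as well, since the strand setting of the counting is not stated.

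**Figure D4:**
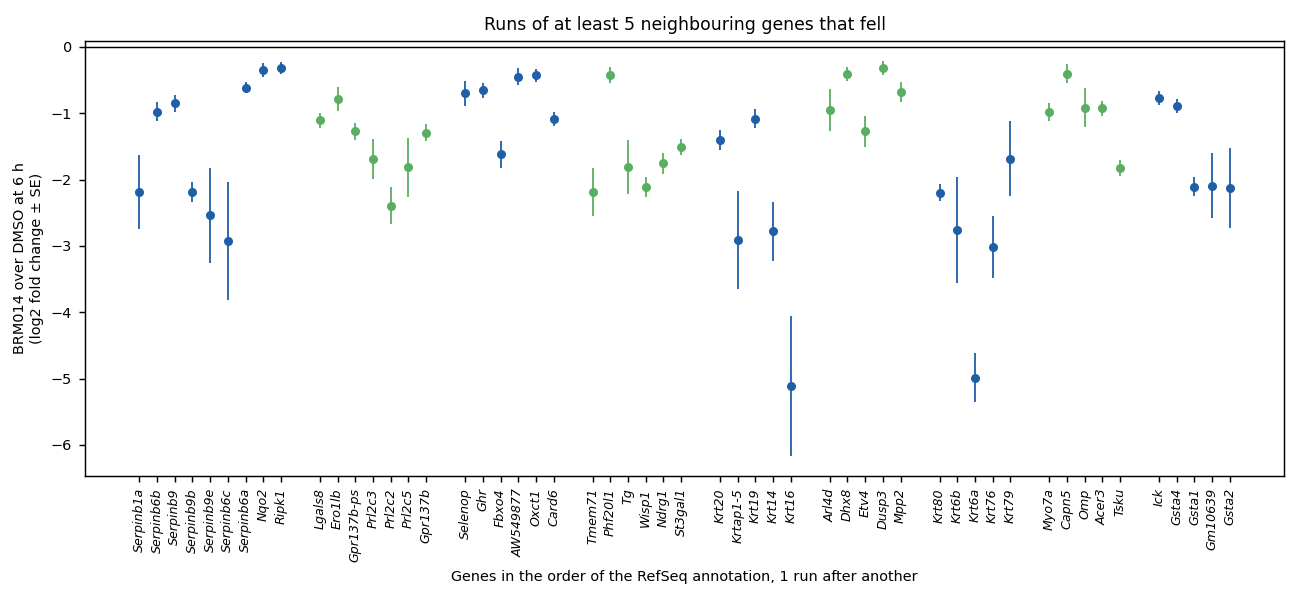
Log2 fold change ± SE at 6 h of the genes in the 9 runs of at least 5 neighbouring tested genes that all fell, in the order of the RefSeq annotation, with alternating colors for successive runs. All 53 points lie below 0, as the choice of the runs fixes, and the widest error bars belong to genes of low level such as Krt16.

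Most genes called at 6 h were called in the same direction at 30 h. Of the 1106 genes that rose, 715 (64.6%) were also higher at 30 h and 375 did not pass there, and of the 1709 that fell, 1148 (67.2%) were also lower and 509 did not pass. The difference between the effects passed its own test for 766 of 11835 genes (6.47%), with the 6 h effect lower for 460 (3.89%) and higher for 306 (2.59%). Among them were 100 of the genes that rose and 323 of those that fell. Of these 323, 106 had fallen farther at 30 h, 81 less far, and 136 had an effect of the opposite sign, which passed the test at 30 h for 52 of them. The integrin α2 gene Itga2, a collagen receptor, was at 59.1 and 54.7 CPM in DMSO and 21.7 and 19.2 CPM in BRM014 at 6 h and at 22.4 and 26.4 CPM in DMSO and 43.7 and 46.3 CPM in BRM014 at 30 h. The effect was -1.48 ± 0.12 at 6 h and 0.88 ± 0.12 at 30 h, a difference of -2.36 ± 0.17, adjusted p = 1.38e-05 (edgeR). Krt80 was at 32.2 and 28.1 CPM in DMSO and 30.3 and 32.8 CPM in BRM014 at 30 h, where its effect was 0.07 ± 0.12 (difference -2.27 ± 0.18, adjusted p = 1.74e-05). In both genes the DMSO level was lower at 30 h than at 6 h, and the part of this in the difference was not tested. Itgb7 fell farther at 30 h, from -2.74 ± 0.17 at 6 h to -6.27 ± 0.23 at 30 h (difference 3.53 ± 0.28, adjusted p = 2.25e-05), with 176 and 146 CPM in DMSO and 3.05 and 1.40 CPM in BRM014 at 30 h. The matrix gene Ccbe1, Nbeal2 and Ccl2 also had lower effects at 6 h, and the lectin Lgals2, S100a4, the carboxylesterase Ces2g and the aldehyde dehydrogenase Aldh3a1 lower effects at 30 h. Without DMSO 6 h replicate 1 the difference passed for 351 genes, without BRM014 6 h replicate 1 for 390, without BRM014 6 h replicate 2 for 373, and without BRM014 30 h replicate 2 for 416. With no filter on low counts it passed for 1309 of 15650 genes.

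**Figure D5:**
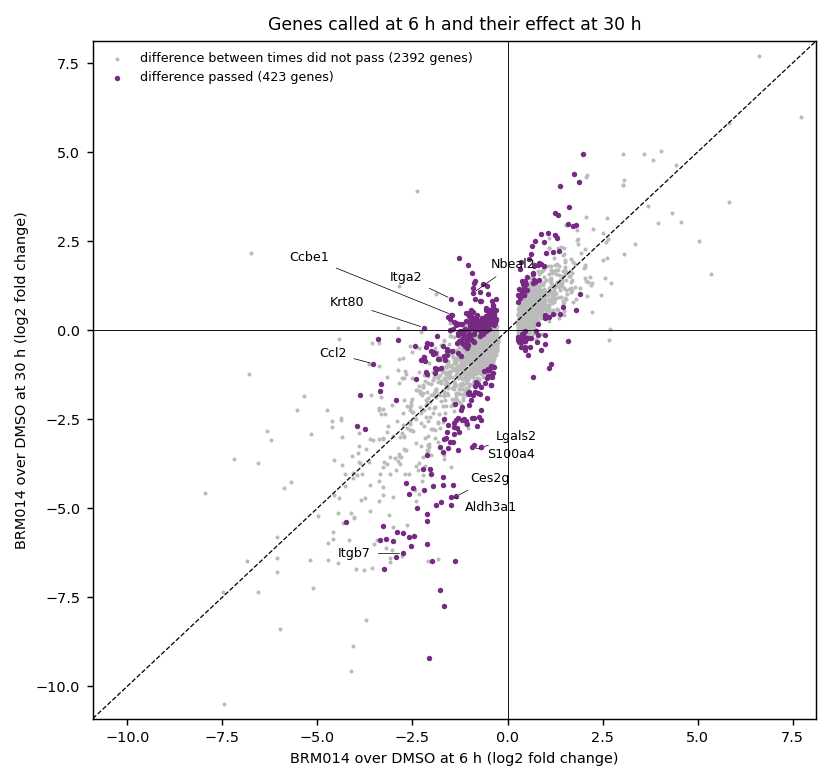
Log2 fold change of BRM014 over DMSO at 30 h (vertical axis) against that at 6 h (horizontal axis) for the 2815 genes called at 6 h, with the line of equal effects dashed. Purple points are the 423 genes whose difference between the times passed the test, and the 10 labelled genes had the smallest p for the difference, 5 in each direction. The 2 times share no sample.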

How the data were processed

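The samples were 8 libraries of NMuMG cells, 2 for each of DMSO and BRM014 at 6 h and 30 h. RNA was made into stranded total RNA libraries and read as single reads of 50 bases, per the labels. The deposited table holds raw read counts per gene for 21240 genes, made by the authors from their reads. The build mm9 and the tools Subread, SAMtools 0.1.19 and featureCounts are named, without their roles, in the submitters' processing notes. The strand setting and the annotation were not given in the sources used here. Library totals were 17859693 to 29955366 counts over the 8 samples.

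Genes were kept by the edgeR function filterByExpr (11835 of 21240, 55.7%) and scaled by TMM. A quasi-likelihood fit in edgeR 4.0.16 (R 4.3.3) with 1 mean per group left 4 residual degrees of freedom among samples, with a biological coefficient of variation of 9.30%. Tests were 2-sided, with Benjamini-Hochberg adjustment over all tested genes and a threshold of 0.05. The prior count was 2, and a standard error is the size of the log2 change divided by the root of its F value. The difference of the effects at 6 h and 30 h was tested in the same fit. Scripts were tested on simulated data. The closing section gives the effect of 16 alternatives, which include DESeq2 1.42.0 and limma-voom (limma 3.58.1). A stricter filter there kept genes with at least 1 CPM in 4 libraries.

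The genes named are the 2 ATPases, the 12 largest called changes in each direction, up to 4 called genes per list and direction by p without overlap of the groups, 5 per direction for the difference between the times, and up to 6 near-silent in DMSO. Unnamed gene models were left out of the largest changes. The markers and the genes of neighbouring runs were named beside these. Some genes and 1 list within these rules are not reported here. Genes were grouped into 62 lists and 8 marker lists. The comparison, its genes and the lists were chosen with earlier results of these data known. Gene order and promoter windows came from RefSeq on GRCm38, matched by gene ID for 11802 and 9420 of the tested genes.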

Additional observations from a re-analysis of the deposited data

Results flagged for a closer look

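The effect of BRM014 differed between 6 h and 30 h for 55 of 207 genes named here, Elf3 not counted. This was by a test of the difference itself (edgeR, adjusted over all 11835 tested genes). Of these 55 genes, 10 were chosen for the smallest p of this difference and nearly all others for a call at 6 h. Their number is thus not a share to set beside that of all genes. Values in parentheses are the 6 h log2 effect minus the 30 h log2 effect. It was lower at 6 h for 40 of these genes and higher for 15, and the libraries at the 2 times are different ones.

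Genes that fell at 6 h and whose effect was less negative or positive at 30 h included cytokine, growth factor and signaling genes, namely Tnfaip2 (-3.14), Ccl2 (-2.58), Wnt7a (-2.04), Cxcl5 (-0.85), Ereg (-1.06), Nrg1 (-0.96), Vegfa (-0.78), Bmp4 (-0.76) and Axl (-0.78). Among adhesion, keratin and matrix genes they were Itga2 (-2.36), Krt80 (-2.27), Ccbe1 (-1.89), Col7a1 (-1.68), Itgb6 (-1.44), Itga3 (-1.15), Ppl (-1.03), Lamb3 (-0.68), Mmp14 (-0.59) and Ajuba (-0.50). Transporter, channel and enzyme genes of the same kind were Slc7a11 (-2.60), Kcnn4 (-1.51), Slc4a4 (-0.95), Prss23 (-1.36) and Ptgs2 (-1.31). The remaining ones were Nbeal2 (-1.95), Slfn2 (-1.28), Hist1h1c (-1.16), Cdc42ep2 (-0.98), Tead3 (-0.98), Bmf (-0.97), Arhgap27 (-0.80), Ccng2 (-0.77) and Gsdmd (-0.69). Genes that rose at 6 h and had a larger effect at 30 h were Btn1a1 (-2.66), Rnd1 (-2.06), Ankrd1 (-1.88), Ccnd2 (-1.22), Atf3 (-1.15), Chac1 (-1.15) and Cdkn2a (-0.71).

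Genes that fell at 6 h and had a more negative effect at 30 h were Cfb (5.52), Itgb7 (3.53), Mmp13 (3.46), Ces2g (3.32), Aldh3a1 (3.19), Col12a1 (2.76), Lgals2 (2.60), S100a4 (2.37), Muc1 (1.86), Id2 (1.82), Ephx1 (1.29) and Cldn2 (1.13). Genes that rose at 6 h and had a smaller or negative effect at 30 h were Btg2 (1.25), Srf (0.77) and Zfp36 (0.62).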

How the results depend on the processing

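Of 375 called genes of the named set, 365 were tested under all 16 alternatives, 1 choice at a time, and 10 under 15 of them. All kept their direction where tested, and 272 kept their call wherever tested. RLE factors gave 1154 genes higher and 1668 lower, DESeq2 1116 and 1578, limma-voom 1057 and 1664, the 6 h libraries alone 1516 and 1919, a stricter filter 1192 and 1510, and no filter 1417 and 1866, against 1106 and 1709. Scaling to library totals gave 1691 higher and 1391 lower, so that 45.1% of called genes were lower against 60.7%. Leaving out 1 library at a time gave 416 to 1415 genes higher and 999 to 1874 lower, 135 to 223 higher and 514 to 676 lower by at least 2-fold, and 351 to 921 whose effects at 6 h and 30 h differed, against 766. That last count was 1309 with no filter, where the count of genes tested was 15650. The lone library left in a group by such an omission is assumed to vary like the other groups. Leaving out the second BRM014 library at 6 h moved 62 of 124 list counts by more than 1.5 times, and library totals moved 30. Medians of 12 of 62 lists changed sign with the scaling, none of them larger than 0.08 in size on the log2 scale. A replicate block gave 1359 higher and 1995 lower, 219 and 693 of them by at least 2-fold, and 1237 for the difference between the times. The labels do not say what a replicate number marks. Deviations of same-numbered samples correlated at 0.011 to 0.20, over 0.1 for 5 of 6 pairs of groups, and with 2 numbers per group they were taken as not paired. Depth limited the low genes, whose median standard error was 0.34 in the lowest of 4 bins of level against 0.13 over all, and the causes of these shifts were not tested.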
